A study of Mus musculus with 7 samples.

Results

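The miR-29 family was followed across 7 one-colour microRNA arrays of p53-null mouse soft tissue sarcoma cells. Its members were all rows of the deposited table that come from the mmu-miR-29a, mmu-miR-29b and mmu-miR-29c hairpins, on either strand, which gave 5 of the 252 mouse miRNAs in that table: miR-29a, miR-29b, miR-29c and the star strands miR-29a* and miR-29b*. The arrays themselves carry 6 miR-29 entries among 696 mouse miRNAs. The sixth, miR-29c-5p, was detected on 0 of the 7 arrays and has no row in the deposited table. The array has no entry for miR-29b-2-5p, the star strand of the second miR-29b hairpin.

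All cells were derived from soft tissue sarcomas of p53 knocked out mice, so p53 was absent from every group, controls included. Control primary cells (2 arrays) carried the Non-target shRNA, Rb-depleted primary cells (2 arrays) carried shRb1, and both were selected with puromycin at 2 µg/ml and grown as monolayers. Rb-depleted secondary cells (3 arrays) were shRb1 cells recovered from spheres that had grown for 10 to 14 days in serum-free methylcellulose with EGF and bFGF, and then returned to monolayer culture. No arrays of control cells taken through sphere culture were analysed here, so in comparisons of secondary with primary cells the passage through spheres, and in comparisons with control cells both that passage and Rb depletion, cannot be told apart. The series describes its replicates as independent experiments but does not name separate tumours or transductions, and p-values measure only the spread between these samples. A miRNA array has no probe for Rb mRNA, and the depletion was not checked here.

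miRNAs are short RNAs that guide silencing complexes to messenger RNAs, mainly by pairing of the seed, which is a run of bases near the 5′ end. miR-29 is known for repressing collagens and other extracellular matrix genes, DNA methyltransferases and the survival factor Mcl1. It is abundant in cells of mesenchymal origin, its transcription is repressed by Myc, and low levels have been described in several sarcomas. Each hairpin gives a guide strand, here the 3′ strand (miR-29a, miR-29b, miR-29c), and a star strand from the 5′ side, which is usually degraded.

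The 3 guide strands are shown because they share a seed and differ at few bases, which bears on how well probes can separate them. The sequences come from RefSeq (GRCm38.p6), written 5′ to 3′ with the seed, bases 2 to 8, in capitals.
miR-29a: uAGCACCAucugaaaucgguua
miR-29c: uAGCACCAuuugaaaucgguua
miR-29b: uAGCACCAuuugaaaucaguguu
These were the only 3 of 1679 mature mouse miRNA names in the RefSeq table with this seed. Counted from 1 at the 5′ end, miR-29a and miR-29c differ by the single substitution C10U. miR-29b differs from miR-29c at 3 of 22 aligned positions (G18A, U21G and A22U) and is 1 base longer. Cross-hybridization between miR-29a and miR-29c probes was not tested.

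The star strands are shown because they report on single hairpins, whereas the miR-29b guide is made from 2.
miR-29a*: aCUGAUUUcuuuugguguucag
miR-29b*: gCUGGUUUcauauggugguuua
miR-29a* comes from Mir29a and miR-29b* (miR-29b-1-5p) from Mir29b-1 only. Their seeds differ from that of the guides and from each other.

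The 4 hairpins lie in 2 clusters, given here on NCBIM37 (mm9), the build named by the scanner files. Mir29a (chr6:31012660-31012747) and Mir29b-1 (chr6:31013017-31013097) are on the minus strand, 269 bases apart, and lie within no other annotated gene of GENCODE vM1. Mir29b-2 (chr1:196863234-196863314) and Mir29c (chr1:196863741-196863828) are on the plus strand, 426 bases apart, and both lie inside an exon of the long intergenic non-coding RNA A330023F24Rik. Every mature miR-29 sequence was found in the NCBIM37 sequence of its hairpin.

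The values are given on a scanner scale and a normalized scale. The total gene signal is the summed brightness of a miRNA's spots in the scanner output, in arbitrary intensity units, and is not adjusted between arrays. The deposited value is its log2 after quantile normalization by the authors, in which a miRNA's value on an array is set by its rank there among all 718 features normalized. Added up over the 252 miRNAs, the total gene signal ranged from 432616 to 550498 units, and 258 to 287 of the 696 mouse miRNAs were detected per array. Without normalization the median log2 fold change over all 252 miRNAs was -0.26 in the Rb-depleted primary cells and -0.46 in the secondary cells relative to control, and -0.18 in secondary relative to Rb-depleted primary cells, so unnormalized changes are read against these shifts. One slide held the 4 primary arrays with secondary replicate 1, and another held secondary replicates 2 and 3. All 6 mesenchymal markers examined (among them miR-199a-3p, miR-214 and miR-143) were detected on all 7 arrays, whereas 0 of 7 epithelial and 0 of 4 blood-cell markers were detected on any. The summed signal of the mesenchymal markers was 12552 and 13555 in control, 9083 and 10934 in Rb-depleted primary and 11687 to 13295 in secondary cells. Of the 2 endothelial markers only miR-126-3p was seen, on the 4 arrays of primary cells at up to 10.7 units. Of 4 striated muscle markers miR-206 alone was detected, with the list's sum at 46.7 and 47.4 in control, 28.2 and 44.2 in Rb-depleted primary and 13.3 to 36.8 in secondary cells, while miR-1, miR-133a and miR-133b were not detected. Of 3 neural markers, miR-9 and miR-128 were detected on all arrays and miR-124 on none, with a sum of 210 and 220 in control, 127.6 and 184 in Rb-depleted primary and 96.8 to 166 in secondary cells. The part of these low signals in the miR-29 values was not tested.

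miR-29a and miR-29b were among the brightest miRNAs of these sarcoma cells. By mean deposited value, miR-29a ranked 5th, miR-29b 7th and miR-29c 25th of 252, whereas miR-29b* ranked 117th and miR-29a* 204th. The 3 guides together made up 5.19% to 6.47% of the total gene signal of the table's miRNAs on each array. On every array miR-29a was brighter than miR-29b, and miR-29b brighter than miR-29c. Brightness depends on each probe as well as on amount, so this order is one of signal and not of molecules. The scanner's own error was 7.18% to 7.24% of the signal for miR-29a, 7.86% to 8.09% for miR-29b and 9.83% to 11.0% for miR-29a*, and 0 of the miR-29 spots were saturated.

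**Figure D1:**
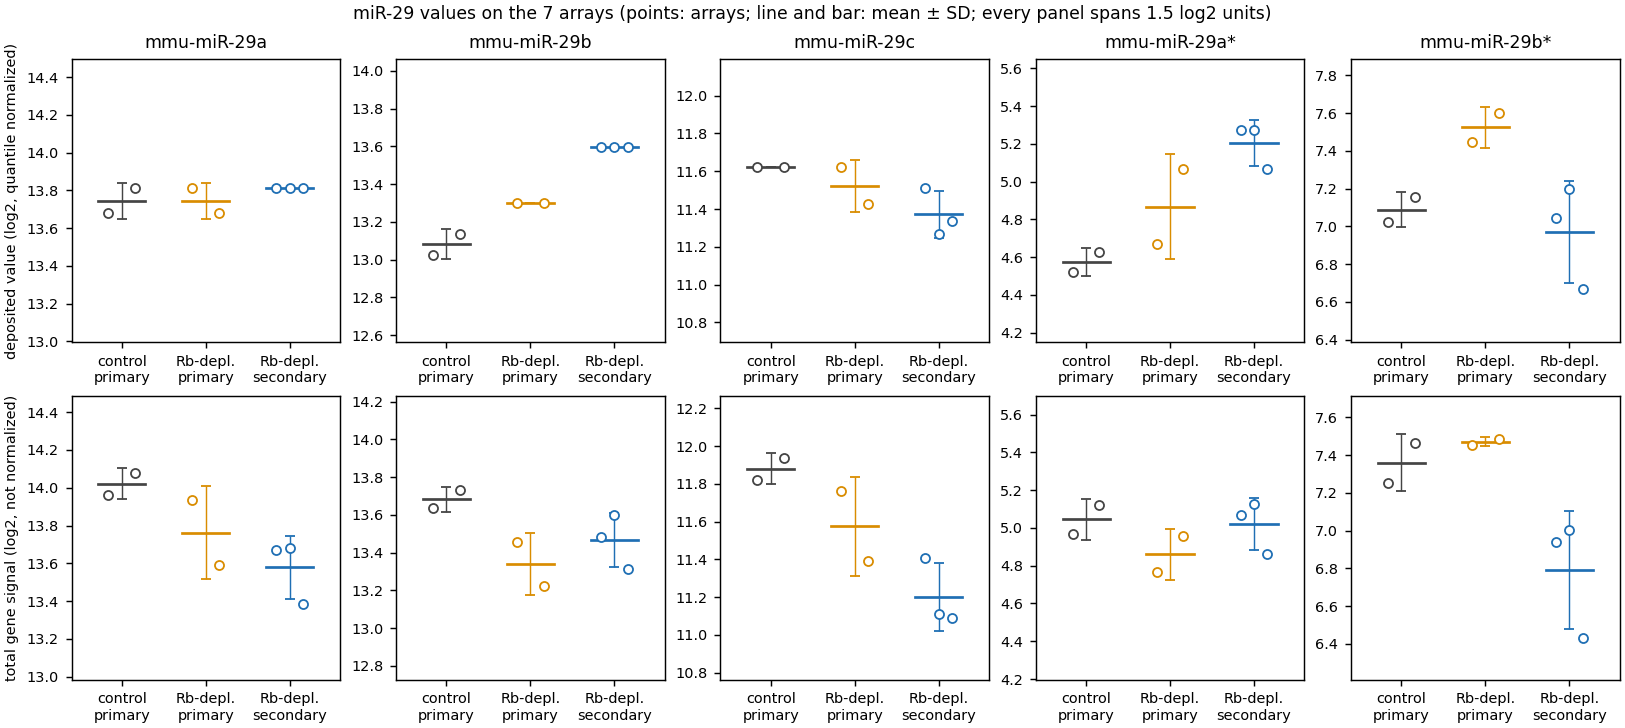
Values of the 5 miR-29 rows on each array, by group, as deposited log2 values (top) and as log2 total gene signal before normalization (bottom). Points are arrays and lines with bars are the mean ± SD. The deposited miR-29b values step up from control to Rb-depleted primary to secondary cells, while its unnormalized signal is lower on all 5 Rb-depleted arrays than on both control arrays.

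Of the 5 miR-29 rows, 2 passed the comparison of the 3 groups, namely miR-29b and miR-29a*, while 109 of all 252 miRNAs (43.3%) passed the same test. The test was limma's moderated F-test with a Benjamini-Hochberg threshold of 0.1, and the adjusted p was 0.0170 for miR-29b and 0.0573 for miR-29a*. It was 0.107 for miR-29b*, 0.226 for miR-29c and 0.683 for miR-29a. The share of family members that passed was thus close to that of all miRNAs. miR-29b is one of the miRNAs that the study selected on these same arrays, so its call here is not independent evidence.

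miR-29b was higher in Rb-depleted secondary than in control primary cells in the deposited values. These were 13.03 and 13.14 in control primary cells, 13.30 on both arrays of the Rb-depleted primary cells, and 13.60 on all 3 arrays of secondary cells. The 3 groups did not overlap. The equal values within a group come from the normalization, since 0 of them were equal in the scanner output. They made the SD of both Rb-depleted groups 0. For the log2 signal before normalization it was 0.16 in Rb-depleted primary and 0.14 in secondary cells. The SEs and p-values of the deposited differences rest on that narrowed spread. The difference of secondary from control cells was 0.52 on the log2 scale (SE 0.07, n = 3 and 2), a 1.43-fold higher level, with a limma adjusted p of 0.0106. The difference of secondary from Rb-depleted primary cells was 0.30 (SE 0.07, n = 3 and 2, limma adjusted p = 0.0411). Rb-depleted primary cells differed from control cells by 0.22 (SE 0.08, n = 2 and 2), which did not pass (limma adjusted p = 0.155).

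The unnormalized signal of miR-29b went the other way. It was 12731 and 13588 units in control primary cells, 11237 and 9562 in the Rb-depleted primary cells, and 11436, 12429 and 10194 in secondary cells. Both control arrays were thus above all 5 Rb-depleted arrays, and primary and secondary Rb-depleted cells overlapped. The unnormalized log2 difference from control was -0.34 in Rb-depleted primary and -0.22 in secondary cells, against the median shifts of -0.26 and -0.46 over all miRNAs. Relative to that median, miR-29b was 0.24 higher in secondary cells and differed by -0.08 in the Rb-depleted primary cells. Scaling to the 75th percentile of the table's miRNAs was also used in place of quantile normalization. The difference from control was then 0.24 in secondary cells (SE 0.13, limma adjusted p = 0.236). In the Rb-depleted primary cells it was -0.11 (SE 0.14, limma adjusted p = 0.757).

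The rank of miR-29b in the scanner signal was 14 and 13 of the 718 features on the control arrays, 12 on both arrays of the Rb-depleted primary cells, and 11 on all 3 arrays of secondary cells. Among the other features, 3 changed places with miR-29b between arrays, all of them in the deposited table. These moved from above it to below it (miR-2145 relative to control primary replicate 1 alone): miR-2138, miR-2141 and miR-2145, named here after their values were seen. The total gene signal of miR-2138 was 15812 and 15682 units in control, 8837 and 7010 in Rb-depleted primary, and 5609, 4611 and 4368 in secondary cells. That of miR-2141 was 20601 and 15133 in control, 12871 and 10059 in Rb-depleted primary, and 7168, 6987 and 6378 in secondary cells. The signal of miR-2145 was 14935 and 11210 in control, 9420 and 6635 in Rb-depleted primary, and 4306, 4603 and 4201 in secondary cells. No feature moved from below miR-29b on a control array to above it on a secondary array. On the secondary arrays the signal of miR-29b was itself lower than in control cells.

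miR-29a showed no detectable difference between the groups. Its deposited values were 13.68 and 13.81 in control primary cells, 13.81 and 13.68 in the Rb-depleted primary cells, and 13.81 on all 3 arrays of secondary cells. The groups overlapped, and these were the only 2 values that occurred. The log2 difference from control was 0.00 in the Rb-depleted primary cells (95% interval -0.22 to 0.22) and 0.07 in secondary cells (95% interval -0.14 to 0.27, limma adjusted p = 0.585), and these intervals cover only the spread between arrays. Before normalization the signal was 15983 and 17314 units in control, 15677 and 12319 in Rb-depleted primary, and 13022, 13125 and 10712 in secondary cells. Both control arrays were above the others. The unnormalized log2 difference of secondary from control cells was -0.44, or 0.02 relative to the median of all miRNAs.

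miR-29c was the guide with the lowest signal, and its deposited values leaned downward without passing any test. They were 11.62 on both control arrays, 11.62 and 11.43 in the Rb-depleted primary cells, and 11.51, 11.27 and 11.34 in secondary cells. Secondary cells did not overlap with control cells. The log2 difference of secondary from control cells was -0.25 (SE 0.11, n = 3 and 2, 95% interval -0.52 to 0.02, limma adjusted p = 0.156). Before normalization the signal was 3624 and 3922 units in control, 3471 and 2685 in Rb-depleted primary, and 2717, 2209 and 2177 in secondary cells. The log2 difference of secondary from control cells was then -0.68 (limma adjusted p = 0.0173), or -0.22 relative to the median of all miRNAs. Without normalization 114 of all 252 miRNAs were called in this comparison, 5 of them higher. That test does not allow for the median shift. The other strand of this hairpin, miR-29c-5p, was given the scanner's value for undetected miRNAs, 0.1 units, on all 7 arrays, so the strands of Mir29c could not be compared.

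miR-29a*, the star strand of Mir29a, was the second row to pass, at a signal near the low end of the table. Its deposited values were 4.52 and 4.63 in control primary cells, 4.67 and 5.06 in the Rb-depleted primary cells, and 5.28, 5.28 and 5.06 in secondary cells. Both Rb-depleted groups were above control and overlapped with each other. The log2 difference from control was 0.63 in secondary cells (SE 0.14, n = 3 and 2, limma adjusted p = 0.0335) and 0.29 in the Rb-depleted primary cells (SE 0.16, n = 2 and 2, adjusted p = 0.297). The latter ranged from 0.10 without Rb-depleted primary replicate 2 to 0.49 without Rb-depleted primary replicate 1. The total gene signals, however, were 31.3 and 34.8 units in control, 27.2 and 31.0 in Rb-depleted primary, and 33.5, 35.0 and 29.1 in secondary cells. Control and secondary cells overlapped on this scale, with a log2 difference of -0.03 before normalization, and 0.44 relative to the median of all miRNAs. The star strand gave 0.173% to 0.272% of the signal of its guide. The call of miR-29a* in secondary cells was lost when any 1 of the 5 control or secondary arrays was left out, with adjusted p up to 0.179 (without control primary replicate 1).

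miR-29b*, the star strand of Mir29b-1, followed another course than its guide. Its deposited values were 7.02 and 7.15 in control primary cells, 7.45 and 7.60 in the Rb-depleted primary cells, and 7.05, 7.20 and 6.67 in secondary cells. Rb-depleted primary cells were above both other groups, which overlapped. The log2 difference of secondary from Rb-depleted primary cells was -0.55 (SE 0.17, n = 3 and 2), which did not pass (limma adjusted p = 0.0702). The difference of Rb-depleted primary from control cells was 0.44 (SE 0.19, n = 2 and 2, adjusted p = 0.220). Its total gene signal was 152 and 177 units in control, 175 and 179 in Rb-depleted primary, and 123, 128.1 and 86.4 in secondary cells. All 3 secondary arrays were below the 4 primary arrays before normalization. The log2 difference was then -0.57 from control (limma adjusted p = 0.0466) and -0.68 from Rb-depleted primary cells (limma adjusted p = 0.0488). Relative to the medians of all miRNAs these differences were -0.11 and -0.50. Without normalization 114 of all 252 miRNAs were called against control and 45 of 252 against Rb-depleted primary cells. These tests do not allow for the median shifts.

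**Figure D2:**
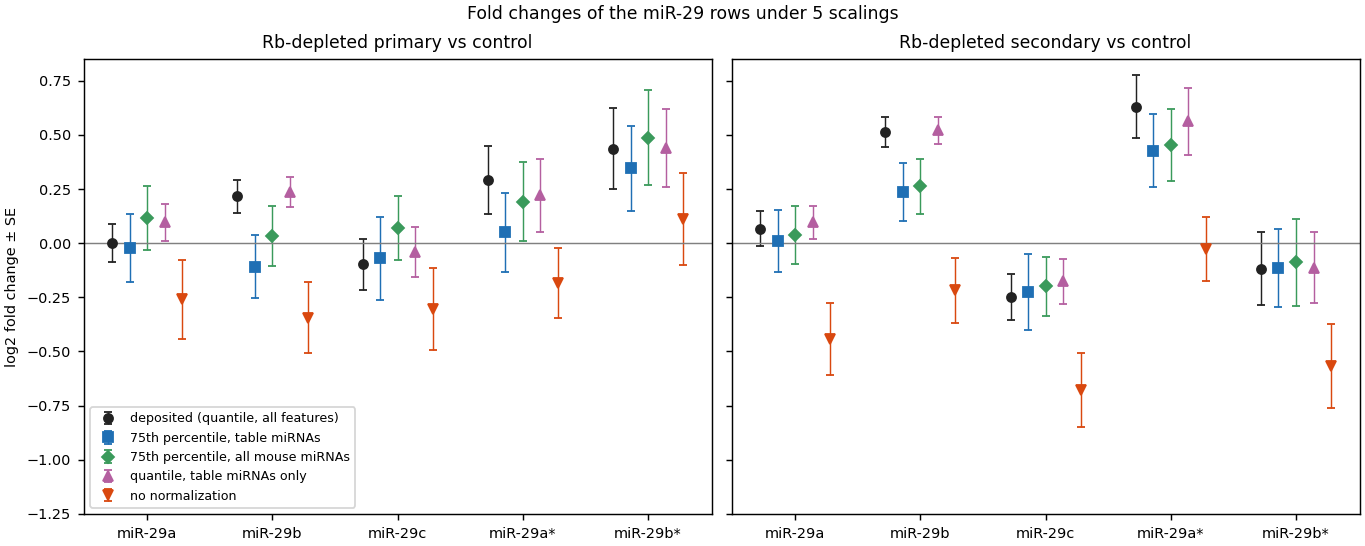
Log2 fold changes from control primary cells, with standard errors from the limma fits, for the 5 miR-29 rows in the Rb-depleted primary cells (left) and Rb-depleted secondary cells (right) under the deposited normalization and 4 alternatives. In secondary cells miR-29b lies at 0.52 with the deposited values, at 0.24 and 0.26 with percentile scaling and at -0.22 without normalization.

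Counted over the family, Rb-depleted primary cells had 0 of 5 miR-29 rows past limma's test against control at an adjusted p of 0.05, where 4 of 252 miRNAs (1.59%) were called in all. At an unadjusted p under 0.05 limma gave 1 of 5 (miR-29b) and 64 of 252 (25.4%), and the classical tests gave 0 of 5 and 5 of 252 (1.98%) at an adjusted p of 0.05. Secondary cells had 2 of 5 called against control, both higher, where 57 of 252 (22.6%) were called in all. Secondary against Rb-depleted primary cells gave 1 of 5, higher, where 51 of 252 (20.2%) were called. The median log2 fold change of the 5 rows was 0.22, 0.07 and 0.07 in these 3 comparisons, and that of all 252 miRNAs was 0.01, 0.03 and 0.02. The selection that needed both comparisons with control to pass in the same direction after Dunnett's adjustment, on limma's moderated statistics, held 0 of 5 miR-29 rows and 17 of 252 miRNAs (6.75%). miR-29b missed it in the Rb-depleted primary cells with a Dunnett-adjusted p of 0.0544 and had 0.000791 in secondary cells. With the classical tests it was among the 13 of 252 miRNAs (5.16%) selected. That list is longer than the one the study reported, so the study's selection was not reproduced exactly. Arrays of the deposited values did not overlap for 3 of 5 rows between the Rb-depleted primary and the control cells (57.5% of all miRNAs), for 3 of 5 between secondary and control cells (52%), and for 2 of 5 between secondary and Rb-depleted primary cells (51.2%).

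Leaving out control primary replicate 1 ended the call of miR-29b in secondary against control cells (limma adjusted p = 0.0778), and the call held without each of the other 6 arrays. The log2 difference of secondary from Rb-depleted primary cells was 0.30 in all 7 omissions, as the equal deposited values within both groups require. That constancy therefore says nothing about stability. The limma adjusted p of this difference ran from 0.0443 to 0.154 and was under 0.05 without secondary replicate 2 alone. The slide that holds all 3 groups has a single secondary array. In the deposited values that array was 0.52 above the mean of the control arrays for miR-29b and 0.70 for miR-29a*. For miR-29b this repeats the difference over all arrays, since the 3 secondary arrays share a deposited value and both control arrays are here. It therefore does not test the slide. Before normalization the differences on this slide were -0.20 for miR-29b and 0.02 for miR-29a*. For miR-29c the deposited difference on this slide was -0.11, against -0.25 over all arrays. With slide as a term in the limma fit, miR-29b in secondary against control cells had an adjusted p of 0.0730 and miR-29a* of 0.125.

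Comparing 2 members on the same array removes any factor that scales that array as a whole. On the scanner signal, miR-29a exceeded miR-29b 1.26-fold and 1.27-fold in control primary cells, 1.40-fold and 1.29-fold in the Rb-depleted primary cells, and 1.14-fold, 1.06-fold and 1.05-fold in secondary cells. The guides were therefore closest on the 3 secondary arrays, which did not overlap with the 4 primary arrays. Secondary replicate 1, at 1.14-fold, shared the slide of the primary arrays, while replicates 2 and 3, at 1.06-fold and 1.05-fold, were on another. The slide was not a term in the permutation test below, and its part in this difference was not tested. As a log2 difference, miR-29b minus miR-29a was -0.34 ± 0.02 (SD, n = 2) in control, -0.42 ± 0.08 (SD, n = 2) in Rb-depleted primary and -0.11 ± 0.06 (SD, n = 3) in secondary cells. Over the 3 groups the exact permutation test gave p = 0.00952, the smallest that 210 assignments allow, and 0.0190 after adjustment over the 4 differences tested. With the deposited values the difference was -0.66, -0.45 and -0.22 in the 3 groups with the same exact permutation p. The order of the primary groups depended on the scale, since Rb-depleted primary cells lay above control by 0.22 in the deposited values and differed by -0.08 on the scanner signal, while secondary cells were highest on both.

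**Figure D3:**
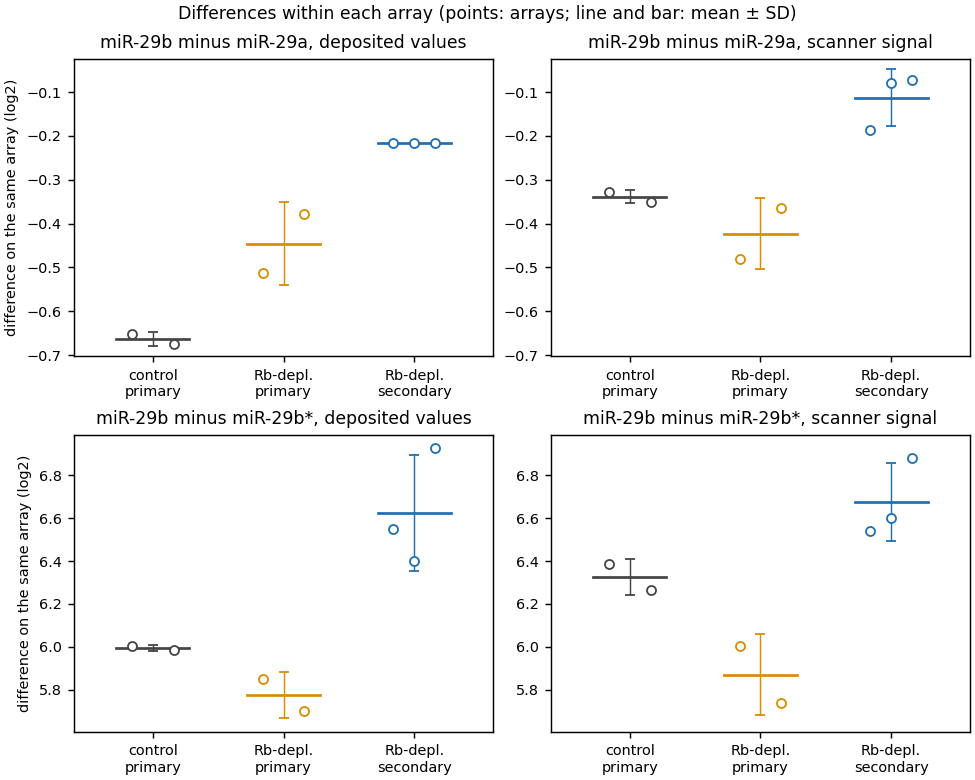
Log2 difference between miR-29b and miR-29a (top) and between miR-29b and its star strand miR-29b* (bottom) on each array, from deposited values (left) and scanner signal (right), with the mean ± SD of each group. The 3 secondary arrays lie above the 4 primary arrays in all 4 panels.

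The guide and star strand of miR-29b also diverged. miR-29b exceeded miR-29b* by a deposited log2 difference of 5.99 ± 0.01 (SD, n = 2) in control, 5.77 ± 0.11 (SD, n = 2) in Rb-depleted primary and 6.63 ± 0.27 (SD, n = 3) in secondary cells. On the scanner signal this difference was 6.32 ± 0.08, 5.87 ± 0.19 and 6.67 ± 0.18, in the same order of groups and with none overlapping. The exact permutation test gave p = 0.00952 on either scale, and 0.0190 after adjustment over the 4 differences. Both differences at this p contain miR-29b, which the study selected on these same arrays, so they are not separate or independent evidence. The share of other miRNA pairs that reach it was not counted. The star strand thus gave 1.20% and 1.30% of the guide's signal in control, 1.56% and 1.88% in Rb-depleted primary, and 1.07%, 1.03% and 0.848% in secondary cells. The guide is also made from Mir29b-2, and the array does not separate the 2 sources. For Mir29a, the guide exceeded the star strand by 9.17, 8.88 and 8.61 in the deposited values of the 3 groups (exact permutation p = 0.0857, adjusted 0.114). miR-29c minus miR-29a was -2.12, -2.22 and -2.44 (exact permutation p = 0.114, adjusted 0.114), so neither of these 2 differences passed.

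The makeup of the summed guide signal was different on the secondary arrays, of which replicate 1 alone shared a slide with the primary arrays. miR-29b gave 39.4% and 39.0% of the summed signal of the 3 guides in control primary cells, 37.0% and 38.9% in the Rb-depleted primary cells, and 42.1%, 44.8% and 44.2% in secondary cells. miR-29c gave 11.2% and 11.3% in control, 11.4% and 10.9% in Rb-depleted primary, and 10.0%, 7.96% and 9.43% in secondary cells. The sum of the 3 guides, which share the seed, was 32338 and 34824 units in control, 30385 and 24566 in Rb-depleted primary, and 27175, 27763 and 23083 in secondary cells. As a share of the signal of all table miRNAs the sum averaged 6.17% ± 0.42 (SD, n = 2), 5.87% ± 0.27 (SD, n = 2) and 5.73% ± 0.52 (SD, n = 3), and these shares overlapped between the groups.

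Each guide was read by 2 probes of 10 spots per array. For miR-29a the brighter probe differed between secondary and control cells by -0.42 and the other by -0.48 on the log2 scale, and for miR-29c by -0.69 and -0.66, all before normalization. For miR-29b the brighter probe, which gave 75.5% of its signal, differed by -0.18 and the other by -0.34. Between secondary and Rb-depleted primary cells the probes of miR-29b differed by 0.17 and -0.01, or by 0.35 and 0.17 relative to the median of all miRNAs. In the same comparison those of miR-29a differed by -0.14 and -0.24 and those of miR-29c by -0.34 and -0.43. Both main probes of miR-29b* were lower in secondary than in the Rb-depleted primary cells, by -0.62 and -0.70.

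**Figure D4:**
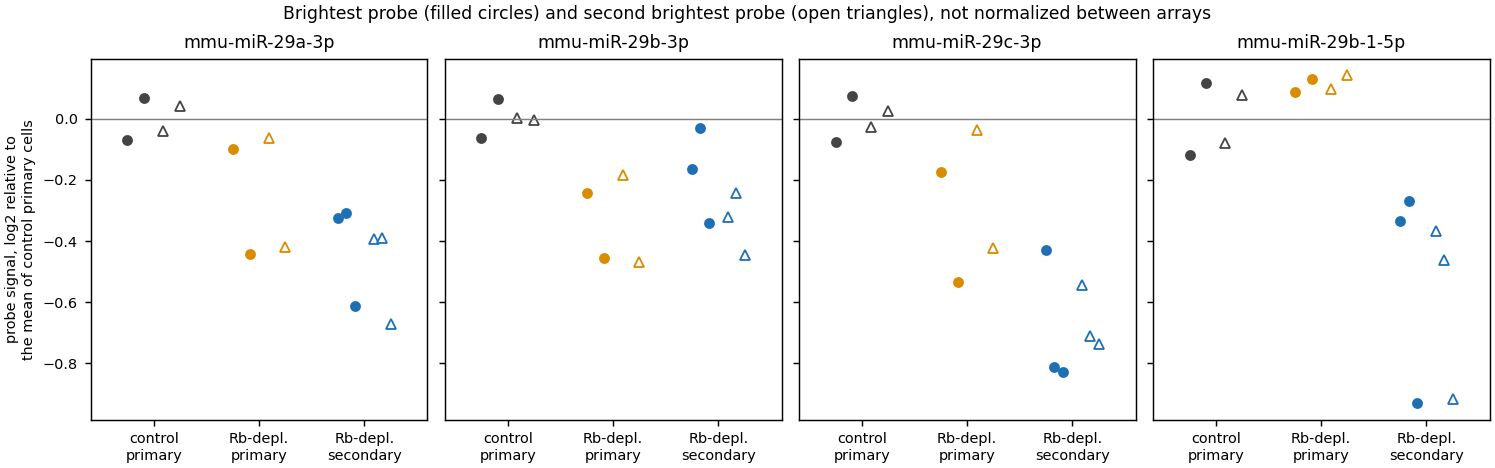
Signal of the 2 brightest probes of miR-29a-3p, miR-29b-3p, miR-29c-3p and miR-29b-1-5p on each array, on a log2 scale relative to the mean of the control primary arrays and not normalized between arrays. Filled circles are the brightest probe and open triangles the next, and in secondary cells the probes of miR-29b-3p lie at mean differences from control of -0.18 and -0.34.

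The miRNAs whose deposited values followed each guide most closely over the 7 arrays were taken by Pearson's r, as a description, since the arrays share groups and normalization. For miR-29b these were miR-18a of the miR-17 cluster (r = 0.97), miR-181a (r = 0.97) and miR-148b (r = 0.97), which in secondary against control cells differed by 0.33, 0.88 and 0.60 on the deposited log2 scale. Without normalization these differences were -0.13, 0.10 and 0.06. For miR-29c they were miR-2138 (r = 0.84), miR-107 (r = 0.83) and miR-370 (r = 0.83), with differences of -1.32, -0.25 and -1.77. For miR-29a, which hardly varied, they were let-7d (r = 0.87), miR-15b (r = 0.79) and miR-24-1* (r = 0.75). Within the family, miR-29b correlated with miR-29a* (r = 0.90) more than with miR-29a (r = 0.58), and with miR-29b* at r = -0.31.

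miR-29 belongs to a set of miRNAs known to be lowered by Myc. Of 17 others in that set, 16 had rows in the table, and 4 of the 16 passed the F-test: miR-34a, miR-15a, let-7g and miR-30e (43.3% of all miRNAs passed it). In the deposited values 14 of the 16 were higher in secondary than in control cells, with a median log2 fold change of 0.25 (range -0.54 to 2.54) where the median of all 252 miRNAs was 0.03. Of the 16, miR-15a alone, which targets Bcl2, passed limma's test in that comparison, in which 22.6% of all miRNAs were called (0.75, SE 0.20, adjusted p = 0.0461), with values of 9.61 and 9.73 in control and 10.69, 10.05 and 10.52 in secondary cells. That call ended with scaling to the 75th percentile of the table's miRNAs (0.73, limma adjusted p = 0.0623) and without normalization (0.28, limma adjusted p = 0.200). miR-34a, a miRNA that p53 induces, was 4.44 and 4.59 in control, 3.44 and 4.52 in Rb-depleted primary, and 5.42, 5.40 and 5.66 in secondary cells, and its difference of secondary from Rb-depleted primary cells was 1.51 (SE 0.32, limma adjusted p = 0.0307). let-7g and miR-30e differed by 0.31 and 0.27 between secondary and control cells (limma adjusted p = 0.0659 and 0.111), and by -0.12 and -0.15 without normalization. Without normalization the list's median was -0.18, against -0.46 for all miRNAs. In the Rb-depleted primary cells 0 of the 16 were called against control by limma (0 at an unadjusted p under 0.05), against 1.59% and 25.4% of all miRNAs, and the median was 0.05.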

How the data were processed

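The authors measured miRNAs on Agilent mouse miRNA arrays and deposited the scanner output, in which each spot and each miRNA has an intensity (Feature Extraction 10.7.3.1 in the submitters' processing notes, 11.0.1.1 in the file headers). The authors also deposited log2 values after quantile normalization in GeneSpring for 252 mouse miRNAs, with 11 control rows that were left out here. Table names were matched to scanner entries by recomputing the normalization over 718 features, which gave the deposited values within 3.2e-06.

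The log2 values of 7 arrays (groups of 2, 2 and 3) were fitted with limma 3.58.1 in R 4.3.3 (statmod 1.5.0), with Python 3.11.15, pandas 2.3.3, numpy 2.4.6 and scipy 1.17.1 for the other steps. A moderated F-test (adjusted p under 0.1), pairwise tests (adjusted p under 0.05, over all 252 miRNAs) and Dunnett's adjustment were used. Differences within arrays were tested by exact permutation of the share of their spread that lies between the 3 groups. That test compares no single pair of groups. The study used classical tests, which are an alternative here. Alternatives were 3 other scalings, no normalization, all 312 miRNAs detected on at least 1 array (floor of 1), mean spot signal, replicate block, slide, trend and robust moderation, array weights, classical tests, other thresholds and each array left out. The procedures were tested on simulated data.

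The text names all rows from the miR-29 hairpins, the 3 miRNAs with the highest correlation with each guide, and the members of the Myc-lowered list past the F-test, at most 4. The members and lists, cell type markers included, were chosen with earlier results of these data known. The arrays give no counts, and their number limits the precision.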

Additional observations from a re-analysis of the deposited data

Results flagged for a closer look

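miR-29b was picked out because the Rb-depleted cultures differed from each other in the deposited values: secondary cells were 0.298 above Rb-depleted primary cells on the log2 scale (limma adjusted p = 0.0411), with 3 of 3 secondary arrays above both primary ones. Each of these groups held a single deposited value, made equal by the normalization. In this comparison 20.2% of all 252 miRNAs were called, and the arrays of 51.2% did not overlap. Before normalization the difference was 0.13 (limma adjusted p = 0.581) and the arrays overlapped.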

How the results depend on the processing

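With scaling to the 75th percentile, over the table's miRNAs or over all mouse miRNAs, and with the replicate block, 0 miR-29 rows passed limma's F-test or any pairwise comparison. In secondary against control cells these settings called 29, 56 and 4 of all 252 miRNAs. Against Rb-depleted primary cells they called 34, 61 and 0, and each called 0 in Rb-depleted primary against control cells. Slide as a term left 1 row past the F-test (miR-29b) and 0 in secondary cells against control or against Rb-depleted primary cells. It called 6 and 0 of all 252 miRNAs in those comparisons. Quantile normalization of the table's miRNAs alone left 1 row called in secondary against control cells (miR-29b). It put 1 in the selection after Dunnett's adjustment, as did array weights. The classical tests gave 1 by the F-test, 1 in secondary against control cells and 1 in that selection. In secondary against control cells these settings called 56 (table's miRNAs alone), 85 (array weights) and 34 (classical tests) of all 252 miRNAs. The fit of all detected miRNAs gave 0 rows in secondary against Rb-depleted primary cells, where 41 of 312 miRNAs were called. The other thresholds (0.05 for the F-test and 0.1 for pairs) gave 1 and 2. Without normalization other rows were called. miR-29b* and miR-29c passed the F-test and were called in secondary against control cells, both lower, where 114 of all 252 miRNAs were called. Against Rb-depleted primary cells miR-29b* was called, with 45 of 252. On that scale miR-29b was at -0.34 in Rb-depleted primary and -0.22 in secondary cells relative to control, and miR-29a* at -0.19 and -0.025. miR-29a was at -0.44 in secondary against control and -0.18 against Rb-depleted primary cells. miR-29b minus miR-29a changed by -0.084 in Rb-depleted primary cells. Percentile scaling turned miR-29b in Rb-depleted primary cells to -0.11 (table's miRNAs), and miR-29c there to 0.072 and miR-29a in secondary against Rb-depleted primary cells to -0.081 (all mouse miRNAs). miR-29b* in secondary against control cells turned to 0.033 with the replicate block and without secondary replicate 3 (range -0.23 to 0.033 over the omissions). Leaving out each array in turn gave 1 to 2 rows past the F-test, 0 to 2 called in secondary against control cells, 0 to 2 against Rb-depleted primary cells and 0 to 1 in the selection, and exact permutation p of 0.0167 to 0.0667 for miR-29b minus miR-29a and 0.05 to 0.0667 for miR-29b minus miR-29b*, where omissions of a secondary array allow no p below 0.0667. The cause of these changes was not tested. The replicate numbers were not shown to pair the arrays: correlations of same-numbered deviations ran from -0.14 to 0.13 over 6 pairs, and an array correlated best with its own number in 6 of 12 comparisons. With the replicate block, miR-29b in secondary against control cells had a limma adjusted p of 0.0989, and exact permutation within replicate numbers gave p = 0.167 for both differences, the smallest that its 36 arrangements allow, so it says nothing about stability. Of the 270 fold changes under alternatives, 226 kept their direction and side of the threshold, 29 fell below it, 4 passed it and 11 turned. The 226 include fold changes that were called neither in the main fit nor in the alternative. The call of miR-29b against control in secondary cells held in 12 of 18 alternatives, and against Rb-depleted primary cells in 6 of 18. That of miR-29a* in secondary against control cells held in 5 of 18.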
